A study of Mus musculus with 13 samples.

Results

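The Klra genes, also called Ly49, encode C-type lectin-like receptors of mouse natural killer (NK) cells and lie side by side on chromosome 6. The region described here is the 10 consecutive 300 kb bins of chromosome 6 that start from 129000001 to 131700001 (GRCm38), of 9097 bins deposited, 8576 of which could be tested. The region was chosen by measured values: its bin from 129900001 to 130200000 had one of the smallest p-values for Phd2 heterozygous against wild-type tumours. That comparison is therefore given here as a description with no test, while sFlk1 tumours are tested against empty vector tumours. The unit throughout is the percentage of 5-hydroxymethylcytosine (5hmC), the base that TET dioxygenases make from 5-methylcytosine with oxygen as a substrate, read by tet-assisted bisulfite sequencing.

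All 13 samples were PyMT-induced breast tumours (PyMT is the polyoma middle T oncogene) from mice of the FVB strain, 1 numbered mouse per sample. Mice of 16 weeks were Phd2+/- (n = 4) or Phd2+/+ (n = 3), with no plasmid. Mice of 12 weeks had been hydrodynamically injected with the plasmid PRRL2-sFlk1 (n = 3), which encodes a soluble VEGF receptor, or with empty PRRL2 (n = 3). The labels describe the Phd2+/- tumours as having restored vessels and oxygen, and the sFlk1 tumours as more hypoxic. The labels name no sorting of cells, so tumour cells, vessels, stroma and leukocytes may be mixed, and the NK cell content was not analysed here. A bin percentage cannot tell a change in cell mixture from a change within cells. Mean 5hmC over all tested bins was 2.87% ± 0.265 (SD, n = 4) in Phd2 heterozygous tumours against 2.34% ± 0.137 (SD, n = 3) in wild-type tumours, and 2.46% ± 0.0670 (SD, n = 3) in sFlk1 tumours against 2.68% ± 0.158 (SD, n = 3) in empty vector tumours. The table gives no read counts, so depth is unknown, and a bin listed at 0 may lack 5hmC or may have been read too thinly to show it.

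As background, most Ly49 receptors bind MHC class I on other cells and carry an inhibitory motif that restrains the NK cell, while a few lack it and signal through the adaptor DAP12 (the gene Tyrobp). Each NK cell expresses its own subset of the genes. The number of Klra genes differs between inbred mouse strains, and the genes arose by duplication, so that reads from one copy can match another. In tissues, 5hmC is usually found in the bodies of active genes and is low in silent regions.

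The annotation (RefSeq, GRCm38.p6) placed 86 genes in the 10 bins, 51 of them protein-coding. Klra symbols numbered 14, of which 11 were protein-coding and 3 were pseudogenes. Most of the family lay in 2 bins. The bin chr6:129900001-130200000 held Klra5 (Ly49E), Klra6 (Ly49F) and Klra9 (Ly49I), the activating receptor genes Klra4 (Ly49D) and Klra8 (Ly49H, which recognises a protein of mouse cytomegalovirus), and the pseudogenes Klra11-ps and Klra14-ps. The next bin, chr6:130200001-130500000, held Klra7 (Ly49G), Klra10, Klra3 (Ly49C), Klra1 (Ly49A) and Klra13-ps. Klra17 (Ly49Q, found on plasmacytoid dendritic cells) lay in the bin before, and Klra2 (Ly49B, found on myeloid cells) stood alone in chr6:131100001-131400000, apart from the others. Every gene of a bin shares the bin's value, so no value below belongs to a single Klra gene.

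The promoter windows of 4 Klra genes are shown because they bear on how the region can be read: copies resemble each other and hold few CpG, the site at which most 5hmC of mammalian tissue lies. Each runs 5′ to 3′ on the minus strand, from 250 bases before to 50 after an annotated start (RefSeq, GRCm38.p6), with CpG in capitals. For Klra4, Klra9 and Klra2 this start lies inside the annotated gene body and not at its outer end. Klra8 is at chr6:130129849-130130148, Klra4 at chr6:130067222-130067521, Klra9 at chr6:130193063-130193362 and Klra2 at chr6:131247313-131247612.
Klra8: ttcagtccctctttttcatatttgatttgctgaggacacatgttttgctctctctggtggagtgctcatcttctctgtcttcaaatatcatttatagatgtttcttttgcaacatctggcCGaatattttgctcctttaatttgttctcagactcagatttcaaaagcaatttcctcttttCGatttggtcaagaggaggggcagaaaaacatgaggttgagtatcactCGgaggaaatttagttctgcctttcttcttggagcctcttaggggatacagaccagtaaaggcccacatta
Klra4: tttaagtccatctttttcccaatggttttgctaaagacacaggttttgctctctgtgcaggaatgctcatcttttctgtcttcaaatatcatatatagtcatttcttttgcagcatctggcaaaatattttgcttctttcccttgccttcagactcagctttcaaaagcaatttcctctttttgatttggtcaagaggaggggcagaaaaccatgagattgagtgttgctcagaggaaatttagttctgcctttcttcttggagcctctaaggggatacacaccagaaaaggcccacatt
Klra9: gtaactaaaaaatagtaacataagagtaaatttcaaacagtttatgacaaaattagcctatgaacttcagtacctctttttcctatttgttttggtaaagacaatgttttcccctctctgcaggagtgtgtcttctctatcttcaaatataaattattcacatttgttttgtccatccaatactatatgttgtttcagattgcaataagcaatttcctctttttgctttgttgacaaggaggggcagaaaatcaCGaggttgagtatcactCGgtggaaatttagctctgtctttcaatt
Klra2: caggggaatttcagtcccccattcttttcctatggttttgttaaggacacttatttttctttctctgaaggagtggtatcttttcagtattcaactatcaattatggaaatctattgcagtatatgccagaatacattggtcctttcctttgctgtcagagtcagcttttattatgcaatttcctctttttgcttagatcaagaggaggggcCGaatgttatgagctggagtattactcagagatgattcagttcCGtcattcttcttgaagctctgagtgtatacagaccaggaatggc

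The windows of Klra8 and Klra4, neighbours in the same bin, were identical in 86.0% of alignment columns, yet Klra8 held 3 CpG and Klra4 held 0. Among the 5 protein-coding genes of that bin, identity in alignments from end to end ran from 41.7% (Klra8 with Klra9) to 86.0% over 10 pairs. Windows that hold a shared stretch at different positions score low this way, and those of Klra8 and Klra9 do. Low values are therefore no measure of how far the copies have diverged. The windows of Klra9 and of Klra3 in the next bin, aligned the same way, were identical in 85.0% of columns. All 11 protein-coding Klra genes matched the promoter table, with 13 windows. These held 0 to 4 CpG each, with a median of 2, against a median of 7 over 27025 genes. In 9 of the 13 windows at least 1 run of 30 bases occurred on either strand in a window of another Klra gene. The share of such runs was highest in Klra3, at 24.7%, and was 22.9% in Klra6. It was only 4.06% in Klra8 and 2.95% in Klra4, so most runs of these alike windows occurred in no other Klra window. Klra2, Klra1 and Klra10 shared no such run with another Klra gene, but Klra10 shared 33.6% of its runs with windows outside the family. Over all genes, 12.5% had a run of 30 bases in common with a window elsewhere, as did 8 of the 11 Klra genes. These figures describe 300 bases per gene, and the rest of each 300 kb bin was not compared.

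Over the 13 tumours, 5hmC formed a trough across the Klra genes and the pseudogenes after them. The bin of Clec2d, Clec2e, Clec2f, Klrb1f and Cd69 (from 129000001), which encode lectin-like ligands, an NK receptor and an early activation antigen, averaged 4.95% and stood above 89.9% of all tested bins. The bin of Clec12a, Clec1a, Clec1b, Clec7a, Clec9a, Olr1 and Klrd1 (from 129300001), mostly myeloid or endothelial lectins with the NK co-receptor CD94, averaged 2.16%. The next bin (from 129600001), with Klrk1 (the NKG2D receptor), Klrc1, Klrc2, Klrc3 and Klra17, averaged 0.741%. The bin of Klra5 to Klra9 averaged 0.992% and that of Klra7, Klra10, Klra3 and Klra1 0.857%. The lowest values were 0.530% and 0.537% in the following 2 bins, which held pseudogenes and predicted genes only, and which stood above 5.27% and 5.63% of all tested bins.

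Past the trough, the bin of Klra2, Styk1, Magohb and Ybx3 averaged 2.74%, above 56.4% of all tested bins. The last 2 bins averaged 1.08%, with 6 bitter taste receptor genes of the Tas2r family, and 1.15%, with no annotated gene. At the edges of the region, the first bin inside averaged 4.95% against 3.23% in the bin just before it, with Klrb1, Klrb1b and Klrb1c (the NK1.1 family). The last bin inside averaged 1.15% against 1.48% in the bin just after it. The 10 bins of the region averaged 1.57% (1.02% to 2.38% over tumours), against 2.51% (1.84% to 3.05%) in the 10 bins before and 3.39% (2.55% to 4.45%) in the 10 after.

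**Figure D1:**
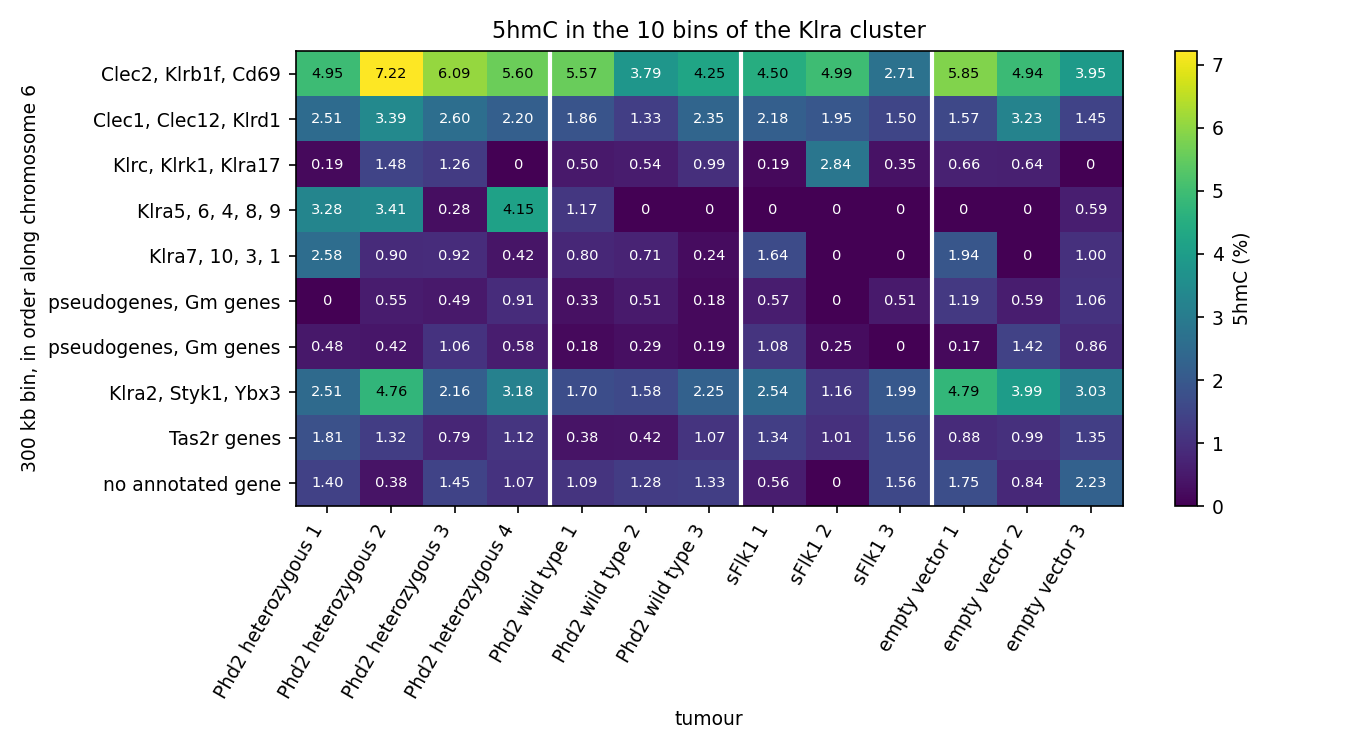
Each cell is the deposited 5hmC percentage of 1 bin (rows, in order along chromosome 6, named by the genes they hold) in 1 tumour (columns, by group). The row of Klra5, Klra6, Klra4, Klra8 and Klra9 holds 3 values over 3%, all in Phd2 heterozygous tumours, and 7 values at 0.

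Zeros were frequent in the middle of the region. Of the 130 values in the 10 bins, 16 were 0, or 12.3%, against 2.40% in all tested bins and 1.67% in those of chromosome 6. Of these 16 zeros, 7 lay in the Klra5 to Klra9 bin, on whose values the region was chosen, so the comparison is a description. The bin of Klra5 to Klra9 was 0 in 7 of 13 tumours and that of Klra7 to Klra1 in 3. The bin of Klrk1 and Klra17 was 0 in 2 tumours, and the 2 bins of pseudogenes in 2 and 1. The bin without a gene was 0 in 1 tumour. The other 4 bins, with the Clec2, Clec1, Klra2 and Tas2r genes, had no zero. All tested bins include many of higher level. Bins of like mean level (within a factor of 1.25) had a median of 1 zero for each of the 2 bins of pseudogenes. For the other bins, the chosen bin left aside, that median was 0. By group, 2 of 40 values were 0 in Phd2 heterozygous tumours, 2 of 30 in wild-type tumours, 8 of 30 in sFlk1 tumours and 4 of 30 in empty vector tumours. The Klra5 to Klra9 bin held 0, 2, 3 and 2 of these zeros, in the same order. Over all tested bins, the mean share at 0 was 2.64%, 1.56%, 3.16% and 2.14% in those groups, also highest in sFlk1 tumours.

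In the bin of Klra5 to Klra9 the zeros stood beside high values. It ran from 0% to 4.15% with a coefficient of variation of 156%. These are the values the region was chosen on, so this spread is a description of them.

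The bin of Klra5 to Klra9 was the one by which the region was chosen, and its values by tumour were as follows. In Phd2 heterozygous tumours 1 to 4 it held 3.28%, 3.41%, 0.279% and 4.15%, against 1.17%, 0% and 0% in wild-type tumours 1 to 3. So 3 of the 4 heterozygous tumours stood above all other tumours of the series, while heterozygous tumour 3 lay below wild-type tumour 1, and the groups overlapped. Heterozygous tumours averaged 2.78% ± 1.71 (SD, n = 4) and wild-type tumours 0.391% ± 0.677 (SD, n = 3), which is a gap of 2.39 percentage points (SE 0.941). The other model stayed low: the values were 0% in all 3 sFlk1 tumours, against 0%, 0% and 0.593% in empty vector tumours.

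The 3 high tumours were not those with the fewest zeros over the genome. Heterozygous tumours 1, 2 and 4 had 2.46%, 3.07% and 4.17% of all tested bins at 0, while heterozygous tumour 3, at 0.279% in this bin, had 0.863%, the lowest share of the series. Wild-type tumours 1 to 3 had 1.22%, 2.15% and 1.32%. sFlk1 tumour 3 had the highest share, 4.99%, and was at 0 in the Klra5 to Klra9 bin. The part of sparse reads in these values was not tested. The tumours were FVB and the RefSeq sequence shown is of C57BL/6J, and the part of strain differences in Klra gene number was not tested.

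**Figure D2:**
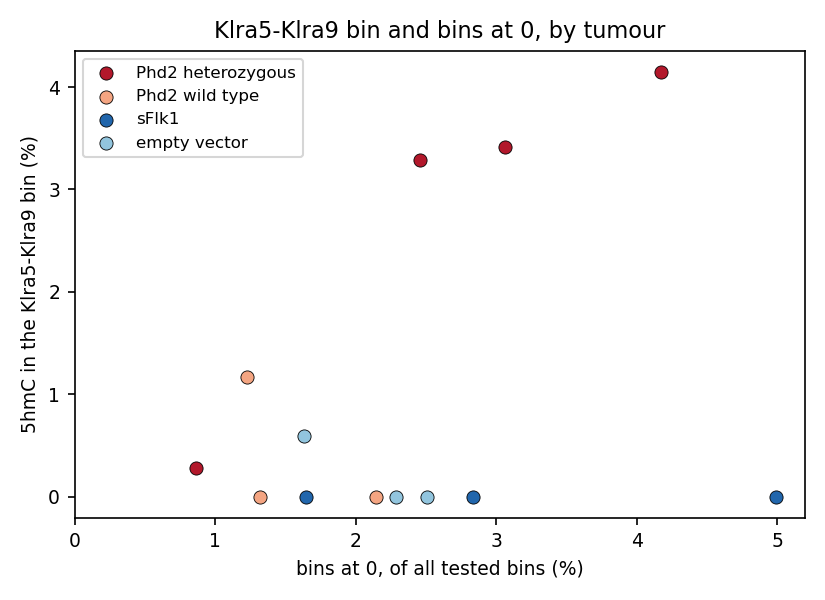
Each point is 1 tumour, with the percentage of all 8576 tested bins that were 0 on the x axis and the 5hmC percentage of the Klra5 to Klra9 bin on the y axis. The 3 tumours over 3% are Phd2 heterozygous with 2.46% to 4.17% of bins at 0, and the tumour with 0.863% of bins at 0 held 0.279%.

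Of the other 9 bins, 8 had a higher mean in Phd2 heterozygous than in wild-type tumours, as did 75.1% of all tested bins, so the count was near the share over the genome. Their median difference was 0.622 percentage points, against 0.385 over all tested bins. With the Klra5 to Klra9 bin the count was 9 of 10. In 1 of the 10 bins every heterozygous tumour lay above every wild-type tumour, close to the 11.0% of all tested bins that showed this. It was a bin of pseudogenes and predicted genes (from 130800001), with 0.476%, 0.424%, 1.06% and 0.580% in heterozygous tumours against 0.176%, 0.294% and 0.187% in wild-type tumours. These are values at the low end of the scale.

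Among the bins with more 5hmC, that of Klra2 held 2.51%, 4.76%, 2.16% and 3.18% in heterozygous tumours 1 to 4 and 1.70%, 1.58% and 2.25% in wild-type tumours 1 to 3. The groups overlapped only through heterozygous tumour 3 and wild-type tumour 3, and the difference was 1.31 percentage points (SE 0.612), or 0.771 without heterozygous tumour 2 and 0.800 relative to the tumours' own means. The bin of the Clec2 genes and Cd69 held 4.95%, 7.22%, 6.09% and 5.60% against 5.57%, 3.79% and 4.25%, with a difference of 1.43 percentage points (SE 0.720), or 0.395 relative to the tumours' own means. There, wild-type tumour 1 lay above heterozygous tumour 1. The bin of Clec12a to Klrd1 had a difference of 0.826 percentage points (SE 0.388), or 0.374 relative to the tumours' own means. That of Klra7 to Klra1 had one of 0.622 (SE 0.505), which was 0.162 without heterozygous tumour 1. The bin of Tas2r genes stood at 1.26% ± 0.426 in heterozygous and 0.625% ± 0.390 in wild-type tumours, and the first bin of pseudogenes at 0.489% ± 0.375 and 0.339% ± 0.166 (SD, n = 4 and 3). In that bin of pseudogenes the difference was 0.00873 without heterozygous tumour 4. The bin of Klrk1, the Klrc genes and Klra17 was close to level, with heterozygous tumours at 0.733% ± 0.746 (SD, n = 4) and wild-type tumours at 0.677% ± 0.268 (SD, n = 3). Its difference of 0.0555 percentage points turned to -0.193 without heterozygous tumour 2 and to -0.113 relative to the tumours' own means. The single bin with a lower mean in heterozygous tumours was the one without a gene, at 1.07% ± 0.492 against 1.23% ± 0.126 (SD, n = 4 and 3), and without heterozygous tumour 2 its difference turned to 0.0709 percentage points.

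Averaged over the 10 bins, 5hmC was 1.97%, 2.38%, 1.71% and 1.92% in heterozygous tumours 1 to 4, against 1.36%, 1.05% and 1.28% in wild-type tumours 1 to 3. The groups did not overlap. Heterozygous tumours averaged 2.00% ± 0.282 (SD, n = 4) and wild-type tumours 1.23% ± 0.163 (SD, n = 3), which is a difference of 0.767 percentage points (SE 0.170) or 62.4%, beside 22.5% over all tested bins. The 62.4% includes the Klra5 to Klra9 bin, on which the region was chosen, so it is no measure of an excess over the genome. Without that bin the difference was 0.587 percentage points, a setting added after the data were seen. Over the bins that do not hold most of a Klra gene, it was 37.5%. The scaled values that follow also keep the chosen bin. Divided by the tumour's own mean over all tested bins, the region stood at 0.697 ± 0.0714 in heterozygous tumours and 0.524 ± 0.0410 in wild-type tumours (SD, n = 4 and 3). With this scaling the difference was 0.450 percentage points. The ratio was below 1 in all 13 tumours, from 0.405 in sFlk1 tumour 3 to 0.758 in heterozygous tumour 4.

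**Figure D3:**
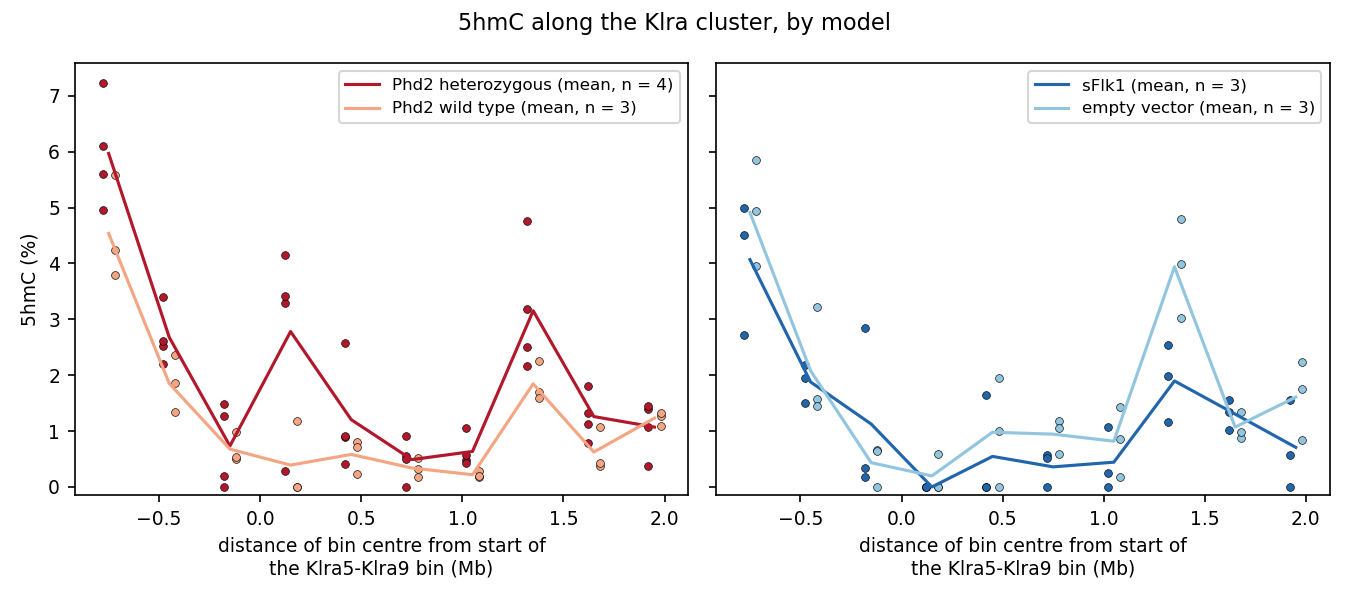
5hmC percentage (y axis) of the 10 bins by the distance of the bin's centre from the start of the Klra5 to Klra9 bin (x axis, Mb), with a point per tumour and a line for the mean of each group. In the left panel the Phd2 heterozygous mean is 2.78% in that bin against 0.391% for wild type, and in the right panel the sFlk1 mean is 1.90% in the Klra2 bin, 1.2 Mb further on, against 3.94% for empty vector.

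Whether the region differs in tumours made more hypoxic was asked by setting sFlk1 against empty vector tumours, which is not the comparison the region was chosen on. Of the 10 bins, that of Klra2 showed the widest gap. It held 2.54%, 1.16% and 1.99% in sFlk1 tumours 1 to 3 against 4.79%, 3.99% and 3.03% in empty vector tumours 1 to 3, so that the groups did not overlap. sFlk1 tumours averaged 1.90% ± 0.693 and empty vector tumours 3.94% ± 0.883 (SD, n = 3 each), a difference of -2.04 percentage points (limma SE 0.677). With limma, fitted over all 8576 tested bins with Benjamini-Hochberg adjustment, it did not pass 0.05: the unadjusted p was 0.00560 and the adjusted p 0.517, with adjusted p for this bin from 0.356 to 0.863 over 13 alternatives. An exact permutation test, two-sided, gave p = 0.10, and 3 against 3 tumours can give none smaller. Of all tested bins, 1.85% had a more negative difference.

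In the region as a whole, 0 of the 10 bins passed with limma, as did 0.0117% of all tested bins (1 bin). At an unadjusted p under 0.05 there was 1 of 10, the Klra2 bin, beside 7.18% of all tested bins. Without sFlk1 tumour 1 there were 4 of 10 at that level, beside 8.45% of all tested bins, and without empty vector tumour 2 there were 3 of 10, beside 6.87%. With the exact permutation test 0 of 10 could pass. A lower mean in sFlk1 tumours was found in 8 of 10 bins, beside 59.5% of all tested bins, and the median difference was -0.404 percentage points, beside -0.146. In 2 of 10 bins every sFlk1 tumour lay below every empty vector tumour, beside 8.24% of all tested bins. The second was the first bin of pseudogenes (from 130500001), with 0.568%, 0% and 0.510% in sFlk1 tumours against 1.19%, 0.592% and 1.06% in empty vector tumours (limma difference -0.585, SE 0.294, adjusted p = 0.695).

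The other 8 bins did not pass with limma, and their groups overlapped. The bin of the Clec2 genes and Cd69 held 4.50%, 4.99% and 2.71% in sFlk1 tumours against 5.85%, 4.94% and 3.95% in empty vector tumours (limma adjusted p = 0.860). That of Clec12a to Klrd1 held 1.88% ± 0.349 against 2.08% ± 0.995 (SD, n = 3 each; limma adjusted p = 0.958), and without empty vector tumour 2 the difference turned to 0.373 percentage points. The bin of Klrk1, the Klrc genes and Klra17 had a higher mean in sFlk1 tumours, with 0.187%, 2.84% and 0.347% against 0.664%, 0.638% and 0% (limma adjusted p = 0.775). That mean rested on sFlk1 tumour 2, and without it the difference was -0.167 percentage points.

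Within the dense part of the family the values were low and sparse. The bin of Klra7, Klra10, Klra3 and Klra1 held 1.64%, 0% and 0% in sFlk1 tumours against 1.94%, 0% and 0.997% in empty vector tumours (limma adjusted p = 0.880). Its difference of -0.433 percentage points turned to 0.0481 without empty vector tumour 1 and to 0.170 with zeros taken as missing. In the bin of Klra5 to Klra9 the limma adjusted p was 0.962. The bins with Tas2r genes and without a gene held 1.30% ± 0.277 against 1.07% ± 0.244 and 0.708% ± 0.790 against 1.61% ± 0.707 (SD, n = 3 each; limma adjusted p = 0.915 and 0.686). The second bin of pseudogenes (from 130800001) held 0.443% ± 0.562 against 0.818% ± 0.626 (SD, n = 3 each; limma adjusted p = 0.838).

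As a mean of the 10 bins, 5hmC was 1.46%, 1.22% and 1.02% in sFlk1 tumours 1 to 3 against 1.88%, 1.66% and 1.55% in empty vector tumours 1 to 3. The groups did not overlap. sFlk1 tumours averaged 1.23% ± 0.222 and empty vector tumours 1.70% ± 0.167 (SD, n = 3 each), a difference of -0.465 percentage points (SE 0.160) or -27.4%, beside -8.17% over all tested bins. Relative to the tumour's own mean, the region stood at 0.503 ± 0.104 and 0.633 ± 0.0269 (SD, n = 3 each), and the groups overlapped. With zeros taken as missing the difference was -0.260 percentage points. The 4 bins that hold most of a Klra gene gave 0.892% ± 0.270 against 1.39% ± 0.401 (SD, n = 3 each), and in the Phd2 model 1.97% ± 0.617 (SD, n = 4) against 0.874% ± 0.168 (SD, n = 3). The values of the Phd2 model include the Klra5 to Klra9 bin, which was chosen on that contrast.

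**Figure D4:**
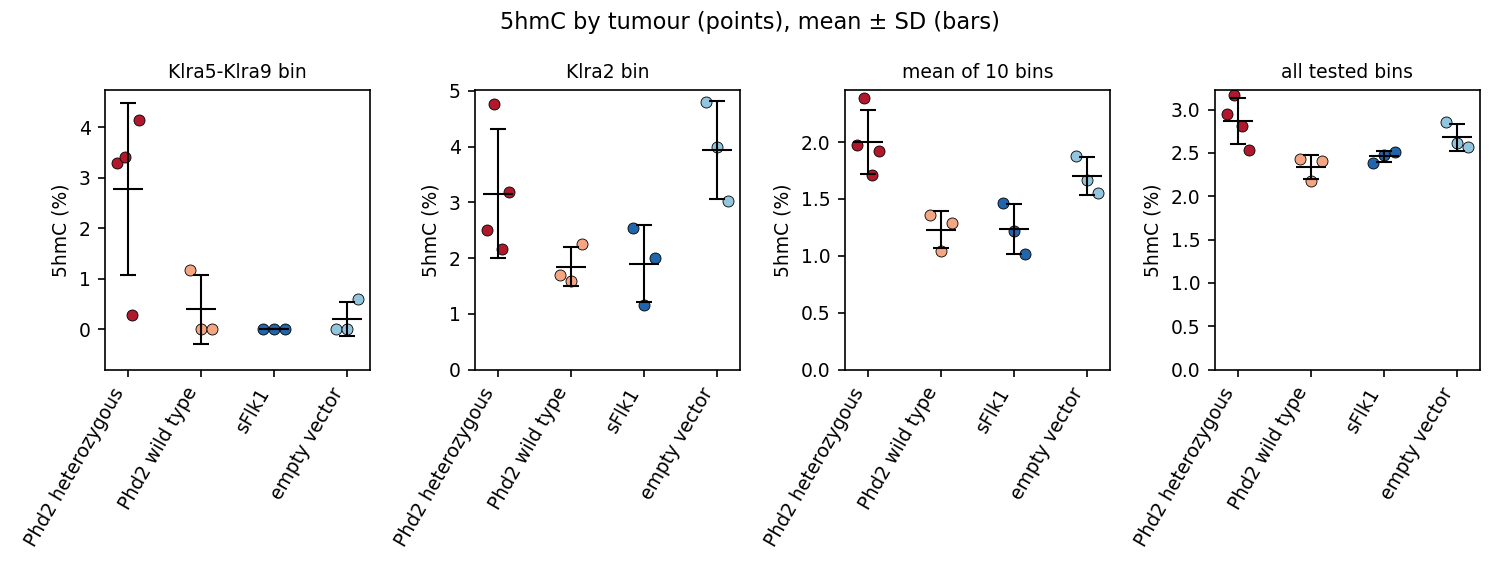
5hmC percentage by tumour (points) with the group mean ± SD (bars) for the Klra5 to Klra9 bin, the Klra2 bin, the mean of the 10 bins and the mean of all tested bins. The 3 sFlk1 tumours are at 0 in the Klra5 to Klra9 bin, and in the Klra2 bin they lie between 1.16% and 2.54%, below the empty vector tumours at 3.03% to 4.79%.

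Set beside other clustered gene families, the 4 bins with most of a Klra gene were at the lower end, at 1.33% over 13 tumours (0.585% to 2.64%). The vomeronasal receptor families stood at 0.982% (Vmn2r, 56 bins) and 1.12% (Vmn1r, 51 bins), olfactory receptors at 1.68% (158 bins), and the paired immunoglobulin-like receptors Pira and Lilr at 1.88% (4 bins). Tas2r genes (10 bins) stood at 2.22%, Ceacam genes (9 bins) at 2.62% and Clec genes (17 bins) at 3.19%, against 2.61% for all tested bins. The Tas2r set includes the region's own Tas2r bin, and the Clec set includes its bins from 129000001 and 129300001. Values at 0 made up 23.1% in the Klra bins, 13.4% in Vmn1r bins, 12.4% in Vmn2r bins, 3.36% in olfactory receptor bins, 0.855% in Ceacam bins and 0% in Clec, Tas2r and Pira and Lilr bins. All Klra figures here include the Klra5 to Klra9 bin, on whose values the region was chosen and which was 0 in 7 of 13 tumours. The other Klra bins were 0 in 2 (Klra17), 3 (Klra7 to Klra1) and 0 (Klra2) tumours. Over the 13 tumours the Vmn2r mean ran from 0.859% to 1.11%, a narrower range than that of the Klra mean, which rests on 4 bins.

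**Figure D5:**
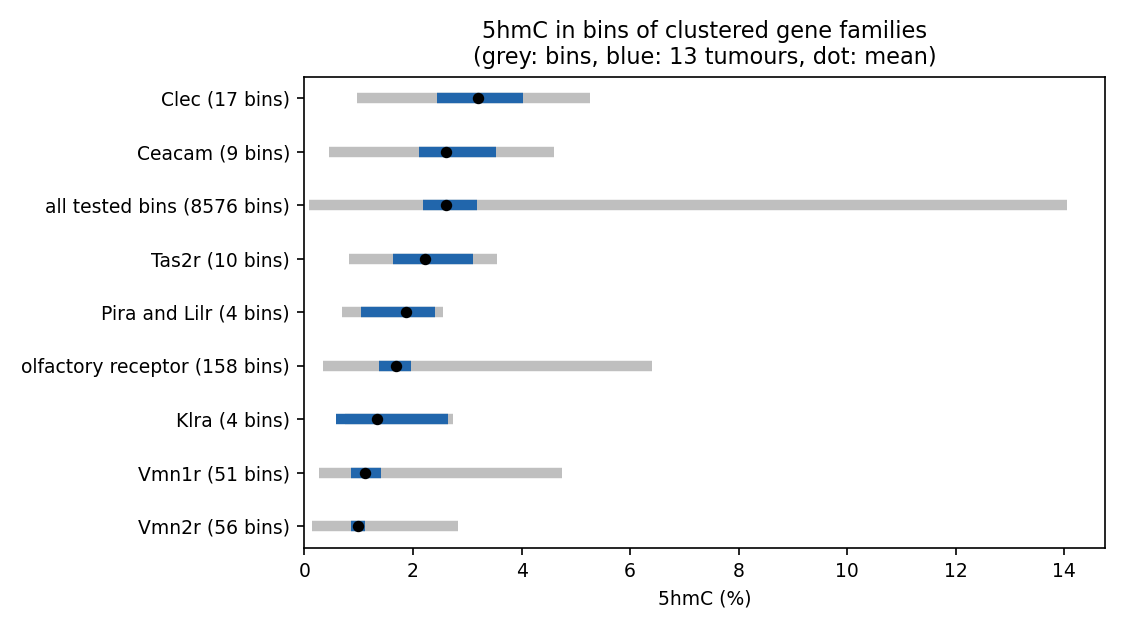
Mean 5hmC percentage (x axis) over the bins of clustered gene families (rows): the dot is the mean over 13 tumours, the blue bar the range over tumours of the family mean, and the grey bar the range over bins of the 13-tumour mean. The Klra dot lies at 1.33%, between Vmn1r at 1.12% and olfactory receptors at 1.68%.

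NK cell genes outside the region were read from lists. Klrb1, Klrb1a, Klrb1b, Klrb1c and Klrg1, NK receptor genes in 3 bins of chromosome 6, had a lower mean in sFlk1 tumours in 3 of 3 bins, beside 59.5% of all tested bins, and 0 passed with limma, beside 0.0117%. The bin just before the region holds Klrb1, Klrb1b and Klrb1c, which share the smallest p of that list, and also Clec2g and Clec2i. That bin was at 2.07% ± 0.493 in sFlk1 and 4.06% ± 0.618 in empty vector tumours (SD, n = 3 each), with an adjusted p of 0.517 from limma. It was at 3.91% ± 0.905 (SD, n = 4) in Phd2 heterozygous against 2.65% ± 0.870 (SD, n = 3) in wild-type tumours. The C-type lectin genes outside the region, Clec2g, Clec2h and Clec2i, lie in 2 of these same bins and add no value of their own.

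The counts of the next 3 lists stand beside 59.5% of all tested bins with a lower mean in sFlk1 tumours. They also stand beside 0.0117% of all tested bins passing with limma. The 10 genes of receptor signalling lie in 9 bins, of which 5 had a lower and 4 a higher mean in sFlk1 tumours, with 0 passing. Ptpn11, which encodes the phosphatase SHP-2, had the smallest p of them, with 2.04% ± 0.307 in sFlk1 against 3.51% ± 0.323 in empty vector tumours (SD, n = 3 each; limma adjusted p = 0.621). Inpp5d, the gene of the phosphatase SHIP-1, followed with 3.12% ± 0.561 against 3.97% ± 0.618 (limma adjusted p = 0.820). Of 14 genes of NK identity and killing, in as many bins, 9 had a lower and 5 a higher mean, with 0 passing. Ncr1, the gene of the receptor NKp46, held 2.64% ± 1.31 against 1.46% ± 0.475 (limma adjusted p = 0.686), and Nfil3, a transcription factor needed for NK development, 2.94% ± 1.79 against 4.49% ± 0.847 (limma adjusted p = 0.695). The 9 genes of MHC class I and of NKG2D ligands, the partners of these receptors, lie in 8 bins, 4 with a lower and 4 with a higher mean and 0 passing, with B2m at 3.46% ± 1.45 against 4.37% ± 0.831 (limma adjusted p = 0.832) and H60b at 3.03% ± 0.386 against 2.59% ± 0.468 (limma adjusted p = 0.883).

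By median over bins, each counted once, the sFlk1 difference was -0.431 percentage points for the NK receptor genes outside the region, -0.353 for signalling, -0.209 for identity and killing, and 0.0621 for the ligands, beside -0.146 over all tested bins. In Phd2 heterozygous tumours, again as a description beside the 75.1% of all tested bins, 2 of the 3 NK receptor bins, 7 of 9 signalling bins, 12 of 14 identity and killing bins and 4 of 8 ligand bins had the higher mean.

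Across the 13 tumours the 10 bins moved together only loosely. Pearson r between 2 bins ran from -0.633 to 0.626 over 45 pairs with a median of 0.110, and neighbouring bins had a median r of 0.217. The mean of the 10 bins had r = 0.864 with the tumour's mean over all tested bins, with both read from the same library. Outside chromosome 6, the bins with a protein-coding gene and no zero whose values were most like the mean of the 10 bins over the 13 tumours were those of Ptk2, a focal adhesion kinase (r = 0.932), Tnik, a kinase of Wnt signalling (r = 0.928), and Axin1 with 7 other genes (r = 0.917), out of 4973 bins searched. These bins held 6.11%, 5.69% and 4.39%, and had r of 0.724, 0.748 and 0.819 with the genome-wide mean. Their r of 0.932, 0.928 and 0.917 are the highest of 4973 correlations, each over 13 tumours. The mean of the 10 bins includes the Klra5 to Klra9 bin, on whose values the region was chosen. Its r with the genome-wide mean and with these bins is therefore a description only, and was not tested without the chosen bin.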

How the data were processed

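Values are the percent 5hmC that the authors deposited for each 300 kb bin in a single table, 1 column per tumour, matched to samples by the labels' descriptions. Groups came from the sample titles. The submitters' processing notes name Bismark 0.13.1 and the build mm9 without saying what each was used for. The bins end at the chromosome lengths of GRCm38, so coordinates are GRCm38 and genes were placed with RefSeq GRCm38.p6, each in the bin holding most of its body. Genes listed in the first 3 Mb of autosomes and X were left out. Pooling of calls within a bin, and any coverage minimum: not given in the sources used here. Depth is unknown, so no counting interval is given.

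Bins of Y, of the mitochondrial genome or at 0 in all tumours were left out (8576 of 9097 kept). The percentages went into limma 3.58.1 (R 4.3.3) for all bins at once, with 13 tumours, 4 group means, a trend and Benjamini-Hochberg adjustment at 0.05, after a test on simulated data. Single values used exact two-sided permutation. p-values measure the spread between the labelled mice. Standard errors of differences use the SDs of the groups unless called limma's. A difference was taken as the tumour group named first minus the second. Promoters were aligned globally (match 1, mismatch 0, gap -1), using the first window listed for a gene.

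All 10 bins are described. From each gene list the pair of genes with the smallest limma p in the sFlk1 comparison is named (ties in a bin included), as are the 3 bins most alike in pattern. The members, lists and tests were chosen with earlier results of these data known.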

Additional observations from a re-analysis of the deposited data

Results flagged for a closer look

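The mean of the 10 bins was flagged because its groups did not overlap in either model, and the directions were opposite. It was higher in each Phd2 heterozygous tumour than in any wild-type tumour, with a difference of 0.767 percentage points, and lower in each sFlk1 tumour than in any empty vector tumour, with a difference of -0.465 percentage points. The mean of the 4 bins that hold most of a Klra gene was flagged likewise, with differences of 1.09 and -0.496 percentage points. The difference between the models was not tested, and the mean over all tested bins showed the same pattern (0.527 and -0.219 percentage points). Both flagged means include the Klra5 to Klra9 bin, on whose Phd2 contrast the region was chosen. Their Phd2 differences and lack of overlap are therefore a description only. Without that bin the mean of the remaining bins differed by 0.587 and -0.495 percentage points, and no such value is given for the Klra bins.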

How the results depend on the processing

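Over 13 alternatives to the limma fit (only these groups, no trend, log2 of the percentage plus 0.5, arcsine, scaling to the tumour's mean, bins above 0 in all tumours, a replicate block, and each tumour left out), 0 of the 10 bins passed in the sFlk1 comparison. Of all tested bins, 0.0117% to 0.0466% passed over these alternatives, so the count of 0 was near the share over the genome. Only 4 of the 10 bins remained among those above 0 in all tumours. For the mean of the 10 bins, the Phd2 difference of 0.767 percentage points was 0.450 relative to the tumour's mean and 1.09 over the 4 Klra bins, and the sFlk1 difference of -0.465 was -0.215 with medians and -0.260 with zeros taken as missing. The cause of these shifts was not tested. With 1 tumour left out they ran from 0.638 to 0.863 and from -0.579 to -0.358. With the replicate number as a block they were 0.792 and -0.465. Each of these Phd2 values includes the Klra5 to Klra9 bin, on which the region was chosen. The numbers were not taken to pair the tumours. Deviations of same-numbered tumours correlated at -0.0934 to -0.00429, beside -0.0554 to 0.0787 for tumours of different number. The replicate block changed no call of the 10 bins, where 0 passed in every setting. At an unadjusted limma p under 0.05 it gave 2 of 10 bins, beside 7.19% of all tested bins, where the main fit gave 1.

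Among single bins, 2 changed direction in the Phd2 comparison with 1 tumour left out, those of Klrk1 to Klra17 (-0.193 to 0.300 percentage points) and without a gene (-0.286 to 0.0709), and 3 did in the sFlk1 comparison. There, leaving out 1 tumour gave -0.517 to 0.373 percentage points for Clec12a to Klrd1, -0.167 to 1.16 for Klrk1 to Klra17, and -0.979 to 0.0481 for Klra7 to Klra1, which was 0.170 with zeros taken as missing. That alternative gives no value for Klra5 to Klra9, since all 3 sFlk1 tumours are at 0. With depth unknown, values near 0 cannot be told from unread bins.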
